A study of Mus musculus with 2 samples.

Results

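The genes described here are 41 genes of the interferon response and of MHC class I antigen presentation, chosen as a list of gene names by their known role. They are 41 of 27594 genes or transcripts with a probe on the array. The list holds 13 genes that build, load or feed class I molecules and 28 genes known as induced by interferon or as carrying its signal. RNA from the skin of Pla2g2f-Tg/+ mice, which overexpress the secreted phospholipase A2 gene Pla2g2f, was compared with RNA from littermate controls. Mice of both genotypes were 25 days old and had a C57BL/6 background, and 1 pool of 4 mice stood for each genotype. The RNA was hybridised on 2 two-colour arrays with the dyes exchanged between them. Neither the promoter of the transgene nor the cells that express it are stated in the labels.

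MHC class I molecules sit on the surface of nearly all nucleated cells and show short peptides from the cell's own proteins to CD8+ T cells. The peptides are cut by the proteasome, carried into the endoplasmic reticulum by the TAP transporter and loaded onto a heavy chain paired with beta-2 microglobulin. Interferons raise many genes of this route through STAT and IRF transcription factors, together with a wider set of antiviral genes, and keratinocytes as well as immune cells of the skin can respond to them.

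Each value below is a log2 ratio of transgenic over control, so 1 stands for a doubling in the transgenic pool. A gene was called higher or lower where both arrays showed a 2-fold or larger difference in that direction. The labels number the arrays as replicates 1 and 2 and give 1 pool of mice per genotype, without saying whether separate pools were hybridised, so the arrays were treated as repeat measurements of 1 pool pair and no test of the genotypes was possible. Over the genes above background the arrays differed by a median of 0.23, and probes printed 10 times on an array had a median SD of 0.09 on array 1 and 0.10 on array 2. The scanner output of array 1 tells whether a probe was well above background in each channel, and gene counts were taken over probes well above background in at least 1 channel. All ratios are relative to the scaling of the arrays by the authors' software. Centring on 10 spike-in control probes in its place lowered every log2 ratio by 0.47 and changed the split of calls over all genes from 389 higher and 176 lower to 173 higher and 473 lower. The probe for Pla2g2f was above 0 on both arrays, at 0.54 and 0.34, below the size that was called. It is not known whether that probe lies in the transgene. The epidermal keratin genes Krt5, Krt14, Krt1 and Krt10 and the epidermal transcription factor gene Trp63 were well above background in both channels, while the desmosomal gene Dsg3 was not.

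All 41 genes had a probe, and 25 of them passed the filter on dim probes. Of these, 18 were well above background in both channels, 6 in the transgenic channel alone (Irf8, Ifit3, Oasl2, Ifih1, Ifitm1 and Eif2ak2) and 1 in the control channel alone (Irf9). The remaining 16 were dim in both channels. A gene that passes through a single channel had to differ between the channels, so counts over both-channel genes and over all 41 genes are given beside those over the 25.

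Of the 25 genes, 12 were called higher and 0 lower, where 3.72% of the 10456 genes above background were called higher and 1.68% lower. Those 12 were B2m, H2-K1, H2-D1, H2-Q10, Psmb8, Psmb9, Psme2, Irf8, Ifit3, Oasl2, Gbp2 and Gbp3. Of the 18 genes above background in both channels 9 were called higher, where the share over all such genes was 2.64%. At a size of 1.5-fold on each array 18 of 25 were higher, where the share over all genes was 8.26%. Ratios were above 0 on both arrays for 24 of 25 genes, where the share over all genes was 35.3%, and for 35 of all 41 genes without the filter, where it was 41.3%. None of the 41 was below 0 on both arrays by the probe that stood for it, though a second, dim probe of Oas3 had -0.36 and -0.21. With spike-in centring 1 of 25 (Psmb9) was called higher and 0 lower, where the share of all genes called higher was 1.65%. With another background correction of array 1 (normexp, then loess) 3 were called higher, namely B2m, H2-K1 and Psme2. The share of all genes called higher fell there too, to 1.02%. The counts therefore describe the size of the ratios under the deposited scaling.

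**Figure D1:**
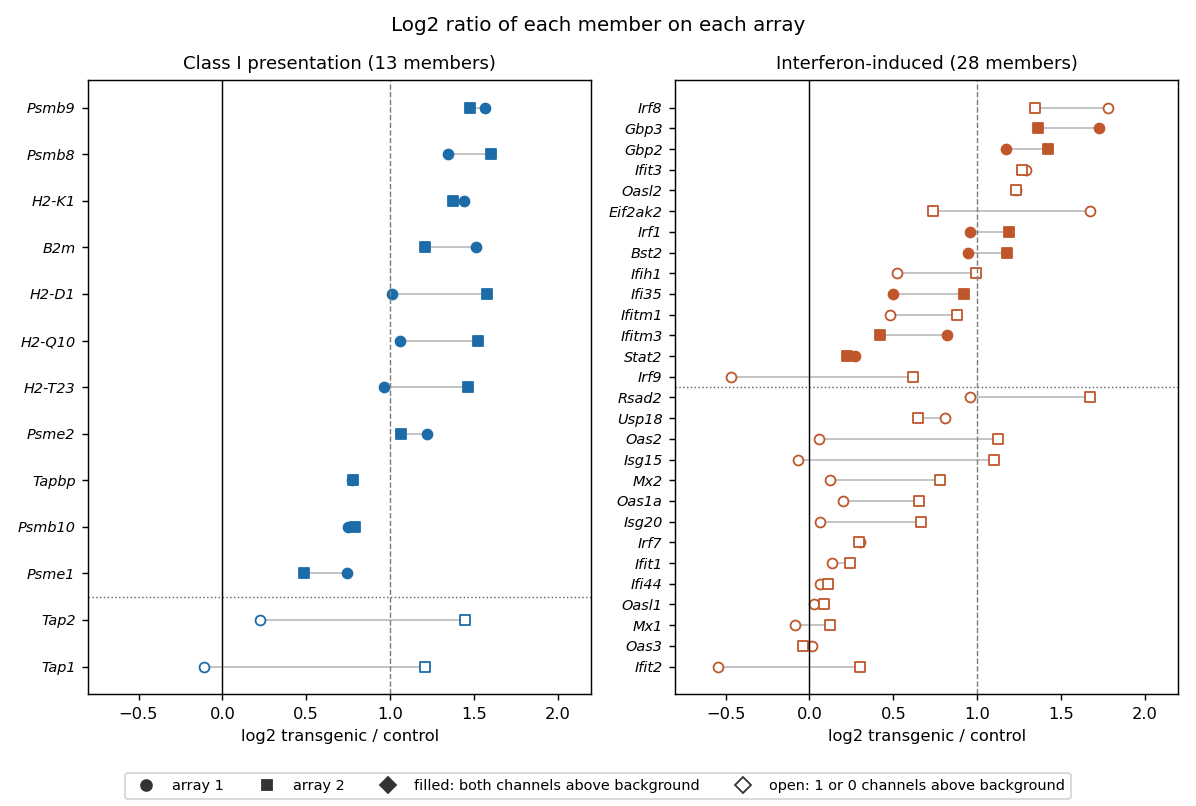
Log2 ratio of transgenic over control (x axis) for each of the 41 genes (y axis), with a circle for array 1 and a square for array 2 joined by a line. Filled symbols mark genes above background in both channels of array 1, open symbols genes above it in 1 or 0 channels, the dashed line marks a 2-fold difference, and genes below the dotted line were dim in both channels. All 11 class I genes above the dotted line lie to the right of 0 on both arrays, and the Tap1 and Tap2 symbols lie apart from each other.

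The classical class I molecules were higher in the transgenic pool on both arrays. B2m encodes beta-2 microglobulin, the light chain shared by all class I molecules. Its probe (NM_009735; mm8, chromosome 2, 121844106 to 121844165) gave processed signals of 4425 in the control and 12605 in the transgenic channel of array 1. The ratios were 1.51 (array 1) and 1.21 (array 2), with 1.36 as their mean; pairs of ratios below keep that order. Both arrays thus lay past a doubling, and the 3 probes of the gene had means from 1.29 to 1.39. H2-K1 encodes a classical class I heavy chain. Its probe (NM_001001892; mm8, chromosome 17, 33606564 to 33606623) read 27054 in the control and 73359 in the transgenic channel. H2-K1 had ratios of 1.44 and 1.38, and the means of its 4 probes ran from 1.15 to 1.45. For this gene the arrays differed by less than the median difference between arrays.

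The other 3 heavy chain genes read higher on array 2 than on array 1. H2-D1, the other classical heavy chain gene of this strain, had ratios of 1.01 and 1.58 from signals of 9420 and 18974 (mm8, chromosome 17, 34874240 to 34874299). H2-Q10, which encodes a secreted class I molecule known mainly from liver, had ratios of 1.06 and 1.52 (chromosome 17, 35081318 to 35081377). Its 3 probes above background in at least 1 channel had means from 1.29 to 1.68, and a further probe, dim in both channels, had a mean of 0.84. H2-T23, the Qa-1 gene whose product presents leader peptides to receptors of NK cells, had ratios of 0.96 and 1.47 (chromosome 17, 35638446 to 35638682). H2-T23 was therefore just outside the size that was called and H2-D1 just inside it, with 0.96 against 1.01 on the lower array.

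Class I heavy chain genes are near-identical copies of each other, and some of these 60-base probes share sequence with probes of other class I genes. The longest stretches shared by the probes used here show values that may not be independent readings of separate genes, with capitals marking the shared bases.
H2-T23 and H2-Q7 probes, 28 bases: TTGGAGCTGTGGTGGCTTTTGTGATGAA
H2-D1 and H2-Q2 probes, 24 bases: TCCACTGACTCTTACATGGTGATC
The probe used for H2-K1 shared at most 7 bases in a row, and that of H2-Q10 at most 9, with any probe of the other H2 genes compared. Probes were compared with other probes and not with the transcripts of related genes, so a short shared run does not show that a probe is specific. RNA of related genes can bind the same probe, so the values of all these heavy chain genes are uncertain as to the gene of origin. For H2-D1 and H2-T23 the shared stretches are shown above.

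Peptide loading was measured by fewer bright probes. Tapbp encodes tapasin, which bridges the empty class I molecule and the TAP transporter. Its ratios were 0.77 and 0.78, from signals of 2133 and 3646, so the arrays gave nearly the same value below the called size. Tap1 and Tap2 encode the chains of the peptide transporter, and both probes were dim in both channels. Tap1 read 85.6 and 79.4 on array 1 with ratios of -0.11 and 1.21, and Tap2 read 182 and 213 with ratios of 0.23 and 1.45. The arrays did not give the same picture for the transporter, and no level is claimed for it.

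Interferon exchanges the catalytic subunits of the proteasome for the immunoproteasome subunits Psmb8, Psmb9 and Psmb10, which cut peptides that fit class I molecules. Psmb9 had ratios of 1.57 and 1.48 from signals of 329 and 977. Psmb8 had ratios of 1.35 and 1.60 from signals of 402 and 1021. Both were called higher on the arrays, whereas Psmb10, the remaining exchanged subunit, had 0.75 and 0.79. Psme1 and Psme2 encode the alpha and beta subunits of PA28, a cap that opens the proteasome. Psme2 was called higher with 1.22 and 1.07, from signals of 8983 and 20941, and Psme1 had 0.75 and 0.48.

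The standard subunits that these replace did not share those ratios. All 15 standard proteasome genes examined were well above background in both channels, 0 were called, and their means ran from -0.28 to 0.19 with a median of -0.02. Psmb5, the counterpart of Psmb8, had 0.05 and 0.33. Psmb6, the counterpart of Psmb9, had -0.03 and 0.16. Psmb7, the counterpart of Psmb10, had -0.45 and 0.34, an array difference wider than that of its partner.

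A constant shift of an array, such as spike-in centring, cancels in the difference between the ratios of a pair. Psmb8 exceeded Psmb5 by 1.29 on array 1 and 1.28 on array 2, a 2.44-fold difference in ratio. Psmb9 exceeded Psmb6 by 1.59 and 1.32, or 2.75-fold. Psmb10 exceeded Psmb7 by 1.20 and 0.45, or 1.77-fold. The exchanged subunits thus stood above their standard counterparts on both arrays in each of these pairs. The size depended on the background correction, since Psmb8 and Psmb9 had control signals of 402 and 329 beside 2936 for Psmb5 and 7840 for Psmb6. With normexp and loess, the array 1 difference was 0.52 for Psmb8, 0.57 for Psmb9 and 0.71 for Psmb10. Against Psme3, which encodes the PA28 gamma subunit found in the nucleus, Psme2 was higher by 1.12 and 1.20 and Psme1 by 0.65 and 0.61. With normexp and loess these were 1.03 and 0.49 on array 1.

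**Figure D2:**
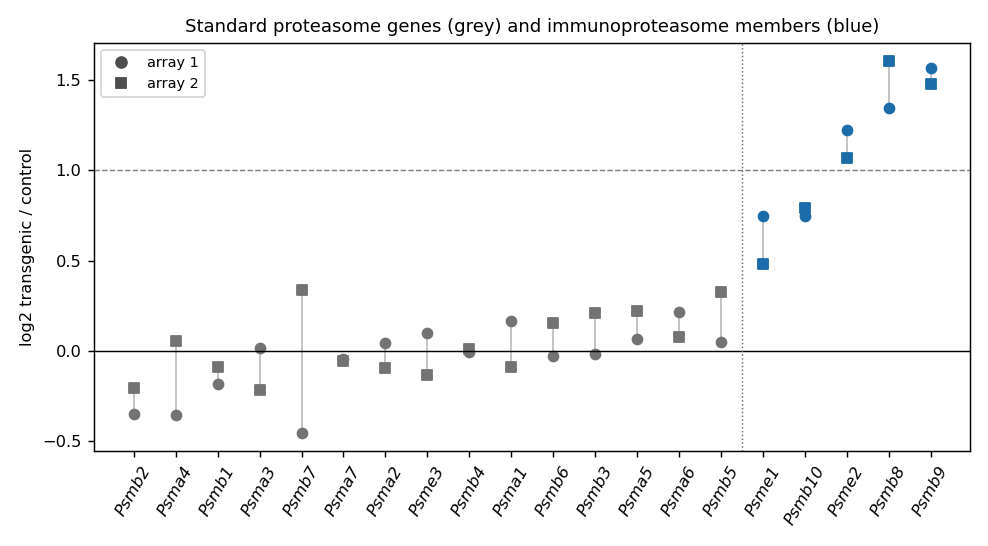
Log2 ratio of transgenic over control on each array (y axis; circles array 1, squares array 2, joined by a line) for the 15 standard proteasome genes (grey) and the 5 immunoproteasome and PA28 genes (blue). Psmb8, Psmb9 and Psme2 lie past the dashed line of a 2-fold difference on both arrays, and no standard gene does on either array.

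As a list, the 13 class I genes had a median log2 ratio of 1.29 over the 11 that passed the filter, all of them above background in both channels, and of 1.22 over all 13. The medians on the single arrays were 1.06 and 1.38. Over all genes that passed the filter the median was -0.01, and without the filter 0.07. Of the 11 class I genes 7 were called higher, where 2.64% of all genes above background in both channels were. At 1.5-fold 10 were higher, where the share over all genes that passed the filter was 8.26%. Psme1 alone of the 11 was not higher at 1.5-fold.

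**Figure D3:**
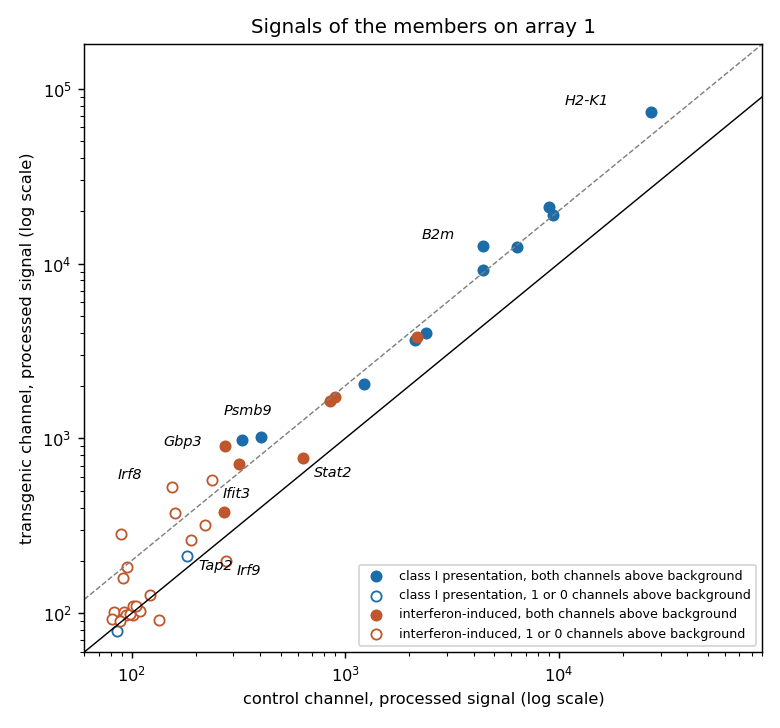
Processed signal of each of the 41 genes in the control channel (x axis, log scale) against the transgenic channel (y axis, log scale) of array 1. The solid line marks equal signals and the dashed line a 2-fold higher transgenic signal; H2-K1, at 27054 and 73359, lies above the dashed line, and most open symbols of the interferon-induced genes lie at low signals.

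The wider class I pathway was followed in 24 further genes, of which 19 had a probe and 16 passed the filter. Their median was 0.98, and 5 were called higher, 0 lower and 11 were not called, where 3.72% of all genes were called higher. Of the 12 above background in both channels 4 were called higher, where the share over all such genes was 2.64%. H2-Q1 (1.21 and 1.23), H2-Q2 (1.14 and 1.51), H2-Q7 (1.04 and 1.39) and H2-Q8 (1.33 and 2.43) are further class I heavy chain genes. H2-Q8 was above background in the transgenic channel alone, with a measured 2.51-fold difference on array 1. The heavy chain genes H2-T10 (0.67 and 1.09), H2-T22 (0.87 and 1.47), H2-M3 (1.28 and 0.54) and H2-Bl (mean 1.42) were not called, and H2-T3 and H2-T24 were dim in both channels. Cd1d1, which encodes a class I-like molecule that presents lipids to NKT cells, had 1.65 and 1.52. The general folding factors that also help to load class I molecules were not called. Canx (calnexin) had 0.31 and 0.01, Calr (calreticulin) had -0.23 and 0.31, and Pdia3 (the disulfide isomerase ERp57) had -0.05 and 0.24.

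Many class I genes and the genes Psmb8, Psmb9, Tap1, Tap2 and Tapbp lie together in the MHC region of chromosome 17. Between the probes of Tapbp and H2-T23 (mm8, chromosome 17, 33539531 to 35638682; 2.10 Mb) 80 genes or transcripts passed the filter. The 7 genes of the list there had a median of 1.29 and 5 were called higher. The 5 other class I genes were all called higher, with a median of 1.32, and so were the 3 class II genes, with a median of 1.45. Over all genes that passed the filter 3.72% were called higher and 1.68% lower. The span ends at H2-T23, and the class I genes H2-T22, H2-Bl, H2-T10 and H2-M3, which lie beyond it, were not called. The 62 other named genes of the span had a median of 0.05, 51 of them within 0.5 of 0. Among those 62 genes 2 were called higher and 1 lower, which are named here after their values were seen. Ltb, the lymphotoxin beta gene, had 2.89 and 3.08. Cfb, which encodes complement factor B, had 1.69 and 1.76. Ly6g6d was lower at -3.12 and -3.38. The genes that lie between the presentation genes therefore did not share their ratios as a block.

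**Figure D4:**
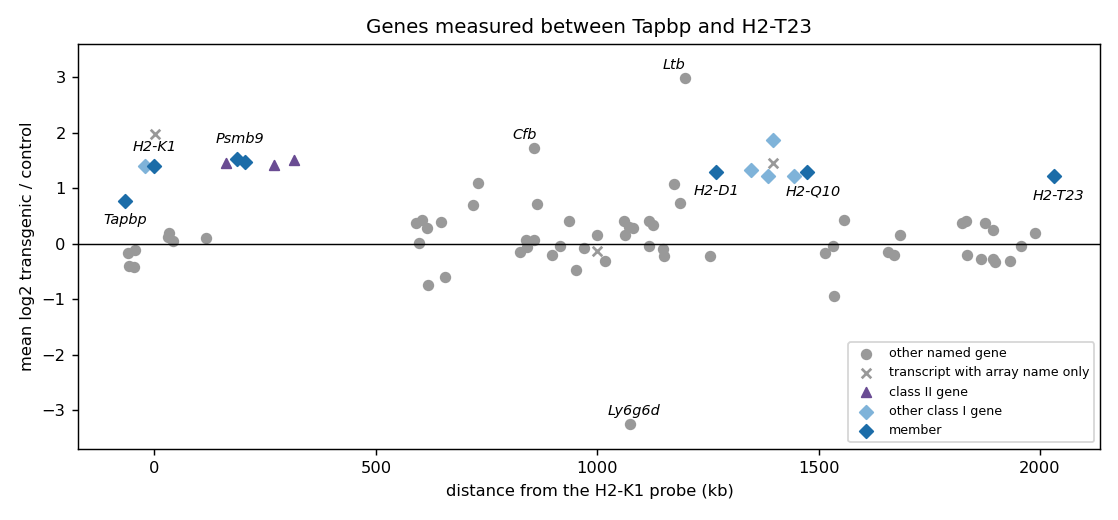
Mean log2 ratio of transgenic over control (y axis) of the 80 genes and transcripts between Tapbp and H2-T23 against the distance of their probe from that of H2-K1 (x axis, kb). Class I genes (diamonds) and class II genes (triangles) lie at 0.78 or above, while most other named genes (grey circles) lie within 0.5 of 0.

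Among the transcription factors that carry an interferon signal, Irf8 was the one called. Irf8 is a factor of macrophages and dendritic cells as well as an interferon-gamma target. Its ratios were 1.78 and 1.34, from signals of 155 and 531, with only the transgenic channel above background. Set against the lowest control signal that was well above background, 199, the difference on array 1 was at least 2.67-fold. A second probe of Irf8 was dim in both channels and had 0.09 and -0.27. Irf1, an early target of interferon gamma that drives class I and immunoproteasome genes, had 0.96 and 1.19 from signals of 892 and 1731. It fell just short of the called size on array 1.

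The factors of the type I interferon complex read near 0 or apart between the arrays. Stat2 had 0.27 and 0.22, from signals of 636 and 768, and Irf9 had -0.47 and 0.62 with only the control channel above background. With spike-in centring the means of Stat2 and Irf9 were -0.22 and -0.39. Irf7, which amplifies type I interferon production, was dim in both channels at 0.30 and 0.29.

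The effector genes with signals above background were higher where they were called, and none was lower. Gbp2 and Gbp3 encode guanylate-binding proteins, GTPases that act on vacuoles of intracellular microbes and are known as interferon-gamma targets. Gbp3 had ratios of 1.73 and 1.36, from signals of 274 and 907. Gbp2 had ratios of 1.17 and 1.42, from signals of 317 and 714. Both lay past a doubling on each array. Ifit3, which belongs to a family that binds foreign RNA, had 1.29 and 1.26, from signals of 237 and 579, and was well above background in the transgenic channel alone. Oasl2, of the oligoadenylate synthetase family, had 1.23 on both arrays, from signals of 159 and 374, and was also above background in the transgenic channel alone. Neither control signal was well above background. Set against the lowest control signal that was, 199, the array 1 difference was at least 1.88-fold for Oasl2. The control signal of Ifit3 was higher than 199, so its 2.44-fold difference on array 1 is the measured ratio and not a lower bound.

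The other effectors above background had smaller or less even ratios. Bst2 encodes tetherin, which holds budding virus on the cell surface, and had 0.94 and 1.18 from signals of 846 and 1627. Eif2ak2, the gene of the RNA-activated kinase PKR, had 1.67 on array 1 and 0.74 on array 2. Its control signal was 89.0, so the difference on array 1 was at least 1.42-fold. Ifih1, the gene of the RNA sensor MDA5, had 0.52 and 0.99, and Ifi35 had 0.50 and 0.92. The interferon-induced transmembrane genes had 0.48 and 0.88 (Ifitm1) and 0.82 and 0.42 (Ifitm3). Of these 6 genes, Bst2 and Eif2ak2 were past 1.5-fold on both arrays.

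The best-known antiviral genes were mostly too dim to be read. The 14 interferon-induced genes that were dim in both channels were Ifit1, Ifit2, Isg15, Isg20, Oas1a, Oas2, Oas3, Oasl1, Mx1, Mx2, Usp18, Rsad2, Irf7 and Ifi44. Their signals ran from 80.6 to 134 in the control channel and from 90.0 to 185 in the transgenic channel, below the lowest signals that counted as well above background there, 199 and 190. Their ratios ran from -0.55 to 0.96 on array 1, with a median of 0.06, and from -0.04 to 1.67 on array 2, with a median of 0.47. Rsad2, the gene of the antiviral enzyme viperin, had 0.96 and 1.67, and Usp18, the gene of the protease that removes ISG15, had 0.81 and 0.64. Only these 2 of the 14 were above 0.5 on both arrays by their brightest probe. The other probes of Rsad2, also dim in both channels, had -0.21 and 0.11, and 0.24 and 0.14. Isg15, a ubiquitin-like modifier gene, had -0.07 and 1.10, and its probe is placed on chromosome 17 by the array design but on chromosome 4 by the RefSeq gene table. At these signals a difference was not detectable, which does not show that the genes were unchanged.

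Together, the 28 interferon-induced genes had a median of 1.07 over the 14 that passed the filter, of 1.06 over the 7 above background in both channels and of 0.61 over all 28. The medians on the single arrays were 0.95 and 1.08 over the 14. Of those 14, 5 were called higher and 8 were higher at 1.5-fold, where 3.72% and 8.26% of all genes were. Of the 7 above background in both channels 2 (Gbp2 and Gbp3) were called higher, where the share was 2.64%, and the other 3 calls rest on genes above background in the transgenic channel alone. The corresponding class I medians were 1.29 with the filter and 1.22 without it. The difference between the lists was not tested.

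**Figure D5:**
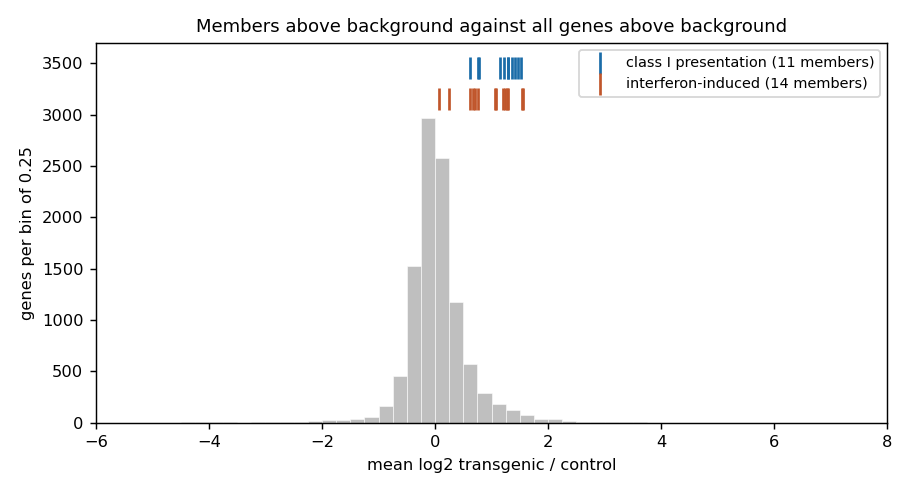
Number of genes per 0.25 bin (y axis) of the mean log2 ratio of transgenic over control (x axis) for the 10456 genes above background, with a tick above for each of the 11 class I and 14 interferon-induced genes that passed the filter. All ticks lie to the right of 0, while the median of all genes is -0.01.

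The ligands and receptors of the pathway were looked at in a list of 26 genes, of which 25 had a probe and 14 passed the filter. None was called, and the median was 0.33. All 8 interferon genes with a probe (Ifna1, Ifna2, Ifna4, Ifnb1, Ifnk, Ifne, Ifng and Ifnl3) were dim in both channels, with means from -0.13 to 0.35. Ifngr1, the ligand-binding chain of the interferon-gamma receptor, had 0.75 and 0.62. Stat3, a factor that serves many cytokines, had 0.77 and 0.80. Jak1, a kinase bound to interferon receptors, had 0.45 and 0.09, and Irf3 had -0.23 and -0.17. The remaining receptor chains are named for their role after their values were seen. Ifngr2 had 0.46 and 0.35 and Il10rb 0.56 and 0.57, close on both arrays. Ifnar1 had -0.40 and 0.05, Ifnar2 1.05 and 0.46, and Ifnlr1 0.38 and -0.03, further apart than the median difference between arrays.

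A further 54 genes known as interferon-induced were read beside the 28, of which 51 had a probe and 25 passed the filter. Of the 25, 6 were called higher and 0 lower, where 3.72% of all genes were called higher, and all 25 were above 0 on both arrays, where 35.3% of all genes were. Of those 25, 7 passed through the transgenic channel alone. Among the 18 above background in both channels 4 were called higher, where the share over all such genes was 2.64%. Without the filter 41 of 51 were above 0 on both arrays, where the share over all genes was 41.3%, and 1 was below 0 on both. The median was 0.89 with the filter and 0.61 without it. Ifi27l2a had the mean ratio 1.80, with signals of 3108 and 12400 on array 1 and a ratio of 1.60 on array 2. Igtp, a GTPase gene of the interferon-gamma response, had 1.25 and 1.33. Ifi204, of a family of DNA-binding proteins, had 1.29 and 1.12, and Ly6e had 1.21 and 1.17. Zbp1 and Cd274, the genes of a nucleic acid sensor and of the checkpoint ligand PD-L1, met the called size with only the transgenic channel above background. Their array 1 differences were at least 1.15-fold for Zbp1 and at least 1.20-fold for Cd274. Among the brightest genes that were not called, Ifi205 had 1.16 and 0.99, Lgals3bp had 1.28 and 0.96, and Ifitm2 had 0.28 and 0.36. Ifi27 was not called by its brightest probe, at 1.12 and 0.86. A second Ifi27 probe, above background in both channels with signals of 1647 and 6577, lay past the called size on both arrays. Its mean was 1.82, with 1.64 on array 2, so the probes of Ifi27 did not give the same call.

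Markers of immune cells were read in the same RNA, since several of the genes above are abundant in such cells. In pooled whole-skin RNA, more cells of a type and more RNA per cell cannot be told apart. Over all genes above background 3.72% were called higher, and 2.64% over those above it in both channels. Of 5 genes of all leukocytes 4 passed the filter and 3 (Cd52, Coro1a and Cytip) were called higher. Cd52 and Coro1a were above background in both channels. Cytip passed through the transgenic channel alone, with 158 and 345, and its other probes, dim in both channels, had 1.15 and -0.01, and -0.03 and 0.04. Signals of the 4 genes on array 1, added over probes of different brightness, came to 1071 in the control and 4048 in the transgenic channel. Ptprc is part of that sum with 106 and 794, above background in the transgenic channel alone, and the ratio of that probe on array 2 was 0.17. A second Ptprc probe, also above background in the transgenic channel alone, had 1.22 and 1.63, and the remaining probes of the gene were dim in both channels. Of 7 macrophage genes 4 passed and 2 (Adgre1 and Lyz2) were called higher, with sums of 10581 and 25001, of which Lyz2 made up 9424 and 22467. Of 6 genes of Langerhans and dendritic cells the class II genes H2-Ab1 and H2-Eb1 and the invariant chain gene Cd74 passed and were called higher, with sums of 3815 and 9389, while the defining markers Cd207, Itgax and Flt3 were dim in both channels. These sums were higher in the transgenic channel, as the class I and Irf8 ratios were, and their part in those ratios was not tested.

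The remaining marker lists, summed in the same way, were read for other cell types. Of 8 T cell genes 1 (Cd3e) passed and was not called, at 0.32 and 0.42. All 5 NK cell genes, and the 5 neutrophil genes with a probe of 6 listed, were dim in both channels. Of 4 genes of plasmacytoid dendritic cells, a main source of type I interferon, Tcf4 passed and was not called at 0.22 and 0.23, while Siglech and Ccr9 were dim. Of 6 endothelial genes 4 passed and Vwf was called higher, with sums of 2901 and 5126. Of 6 keratinocyte genes 5 passed and Krt14 and Krt1 were called higher, with sums of 154342 and 262005. Krt5 made up 84000 and 123285 of these sums and Krt10 40400 and 80509, and neither was called. Trp63 was not called either, at 0.05 and -0.39. All genes that passed in these 2 lists were above background in both channels, where the share called higher over all such genes was 2.64%. The part of endothelial and keratinocyte RNA in the ratios of the 41 genes was not tested.

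Promoter sequence was read for the genes in RefSeq windows from 250 bases before to 50 bases after each start (GRCm38.p6), which covered 36 of the 41 genes. Tap2, Oas2, Mx1, Mx2 and Usp18 had no entry. The core searched for the interferon-stimulated response element, which IRF factors can bind, was GAAANNGAAA on either strand (TTTCNNTTTC on the other). It was found in 16 of the 36 genes (44.4%) and in 35.6% of their 45 windows, where 3.44% of all 32851 windows held it. By list it was in 13 of 24 interferon-induced genes and 3 of 12 class I genes (B2m, H2-T23 and Psme1). The core searched for the gamma-activated site, an element of interferon-gamma targets, was TTCNNNGAA, which reads the same on either strand. It was found in 10 of 36 genes (27.8%) and in 22.2% of their windows, where 8.30% of all windows held it.

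The following pieces show the match in genes that were higher or close to the called size, with bases of the match in capitals and positions counted from the gene's start.
B2m (chr2:122147513-122147592, + strand, bases -174 to -95): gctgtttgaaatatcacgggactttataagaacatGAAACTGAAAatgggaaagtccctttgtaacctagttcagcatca
Ifit3 (chr19:34583338-34583451, + strand, bases -191 to -78): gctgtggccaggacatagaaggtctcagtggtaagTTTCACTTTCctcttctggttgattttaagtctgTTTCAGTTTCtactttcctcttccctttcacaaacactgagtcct
Gbp2 (chr3:142620569-142620648, + strand, bases -94 to -15): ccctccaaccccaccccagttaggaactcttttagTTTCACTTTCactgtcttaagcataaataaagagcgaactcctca
Gbp3 (chr3:142559964-142560043, + strand, bases -80 to -1): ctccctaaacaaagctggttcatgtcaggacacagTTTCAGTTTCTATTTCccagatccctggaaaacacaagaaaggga
Bst2 (chr8:71537552-71537643, - strand, bases -171 to -80): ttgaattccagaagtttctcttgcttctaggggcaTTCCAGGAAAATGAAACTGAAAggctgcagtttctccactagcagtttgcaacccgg
In Ifit3 and Gbp3 the core occurs at 2 places, overlapping in Gbp3, and in Bst2 overlapping cores of both kinds form a single run. The next pieces carry the gamma-activated core alone.
Psmb8 (chr17:34198063-34198141, + strand, bases -132 to -54): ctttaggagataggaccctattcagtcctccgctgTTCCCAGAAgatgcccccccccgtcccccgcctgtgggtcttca
Irf1 (chr11:53769889-53769967, + strand, bases -125 to -47): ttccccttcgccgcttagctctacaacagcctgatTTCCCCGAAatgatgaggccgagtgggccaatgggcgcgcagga
Irf8 (chr8:120736152-120736248, + strand, bases -206 to -110): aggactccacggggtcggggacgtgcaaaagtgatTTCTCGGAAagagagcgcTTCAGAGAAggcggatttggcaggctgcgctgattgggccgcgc
These stand in genes with means of 1.47 (Psmb8), 1.07 (Irf1) and 1.56 (Irf8).

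Called genes and dim genes alike held the interferon-stimulated core. Of the 16 genes with it 11 passed the filter, 4 were called higher (B2m, Ifit3, Gbp2 and Gbp3) and 5 were dim in both channels. Isg15 and Ifit1, both dim, hold clear copies, shown here for comparison with Ifit3 and Gbp2.
Isg15 (chr4:156200840-156200931, - strand, bases -113 to -22): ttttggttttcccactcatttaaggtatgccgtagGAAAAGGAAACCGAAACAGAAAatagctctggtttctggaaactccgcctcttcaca
Ifit1 (chr19:34640750-34640848, + strand, bases -139 to -41): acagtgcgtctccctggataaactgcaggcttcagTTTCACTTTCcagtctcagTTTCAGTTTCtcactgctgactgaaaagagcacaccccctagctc
Called genes without either core in the window included H2-K1, H2-D1 and Psmb9, which says only that these letters are not in this window. A match is a description of the sequence and not a site shown to be bound.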

How the data were processed

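Total RNA (500 ng) from pooled skin of 4 mice per genotype was labelled with Cy3 or Cy5 and hybridised on 2 Agilent mouse arrays, per the labels' protocols. The transgenic pool carried Cy5 on array 1 and Cy3 on array 2. Intensities of array 1 were background-subtracted and dye-normalised by Agilent Feature Extraction 9.5.1.1, per the file headers and the submitters' processing notes. The deposited log10 ratios of Cy5 over Cy3 for both arrays were multiplied to log2 and turned to transgenic over control. For array 1 they matched log10 of the processed signals within 5e-10. The columns as deposited correlated at -0.58 over probes that are not controls, and the spike-in probes, which follow the dye, at 1.00. The ratio error that the authors' software gave with each log10 ratio of array 1, a score from its error model, ran in log2 from 0.22 to 0.31 for members above background in both channels and from 0.40 to 0.84 for dim members. Only array 1 had scanner output in use here.

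Control spots and 29 outlier spots were left out, and no other spot was saturated. Spots of a probe were averaged, and the brightest probe above background stood for a gene. Probes were named through RefSeq accessions, symbols or synonyms (Python 3.11.15, pandas 2.3.3). A bound replaced a dim signal by the lowest signal well above background, from array 1 alone, where a dye bias cannot cancel. Where the dim signal was itself higher than that lowest signal, it was kept and the measured ratio is given. The alternatives were filters, scalings, normexp with offset 50 and loess (limma 3.58.1 in R 4.3.3), the mean over probes, each array alone and a 1.5-fold size. The members and lists were chosen with earlier results of these data known. Every member is accounted for. In each other list the rule names the genes called and up to 4 more with the highest signal. Beyond it, standard proteasome subunits were named as counterparts of members, in place of the brightest ones, and receptor chains, further heavy chains, genes of the MHC span and dim markers for their role, after their values were seen. The number of arrays and pools limits the precision, and signals near background limit it further. Exon or UTR positions of probes were not annotated, because no genome was used here.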

Additional observations from a re-analysis of the deposited data

How the results depend on the processing

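Members called higher numbered 12 without the filter on dim probes, 12 with median-centred arrays and 12 with the mean over probes, as in the report, 9 among genes above background in both channels, and 0 were called lower under any alternative run. They numbered 1 with spike-in centring, 3 with normexp and loess on array 1, 18 at 1.5-fold, and 13 to 15 on a single array. The shares of all genes called higher were 1.65% with spike-in centring and 1.02% with normexp and loess. They were 8.26% at 1.5-fold and 4.97% to 5.43% on a single array. The class I median of 1.29 was 0.82 with spike-in centring and 1.06 to 1.38 on a single array. The interferon-induced median of 1.07 was 0.61 without the filter, 0.60 with spike-in centring, 0.64 with normexp and loess, and 0.95 to 1.08 on a single array. Spike-in centring lowers all ratios by construction. The cause of the other shifts was not tested. The excess of Psmb8 over Psmb5 (1.28) was 0.90 with normexp and loess, and that of Psmb9 over Psmb6 (1.46) was 0.95. Of 193 values of single members under the alternatives, 155 moved by less than the spread between arrays, 38 moved by more, and no called member was below 0. Many of the 155 could not move by more. Both filter settings reuse the same probe values, and median centring shifts each array by a small constant. A single array differs from the mean only by part of the array difference. The 155 are therefore no measure of robustness. Apart from H2-K1 under the mean over probes, the 38 came from spike-in centring or from normexp and loess. The labels give 1 pool per genotype and do not say whether the arrays carried separate ones, so array differences cannot be read as spread between mice. Signals near background limit what can be read of the 16 dim members. No paired analysis was possible because no test between pools could be made.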

Other observations

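Several dim members read high on array 2 alone. Tap1 and Tap2 were 2 of 2 dim class I members that were at least 2-fold higher on array 2, at 1.21 and 1.45, and 0 of 2 were on array 1. Of the 14 dim interferon-induced members 3 were at least 2-fold higher on array 2 (Rsad2 at 1.67, Oas2 at 1.13 and Isg15 at 1.10) and 0 on array 1. These are the brightest probes of each gene. Other dim probes of Rsad2 read 0.11 and 0.14 on array 2, and another dim probe of Oas2 read -0.31. Over all 17147 genes dim in both channels, 1.24% were at least 2-fold higher on array 2 and 0.717% on array 1, and the medians were 0.11 and 0.06. Whether these probes were above background on array 2 is not known here. The brightest probe of the leukocyte gene Ptprc, above background in the transgenic channel alone, showed the opposite order, with 2.91 on array 1 and 0.17 on array 2. A second Ptprc probe above background in that channel alone did not, with 1.22 and 1.63.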
